A study of Mus musculus with 2 samples.

Results

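The genes described here encode the subunits of the proteasome, its activators and its assembly factors. They were chosen by name: every gene named Psma, Psmb, Psmc, Psmd, Psme or Psmf followed by a number. This gave 44 genes of the 34400 in the count tables, all 44 present in both tables. They fell into 5 interferon-inducible subunits (Psmb8, Psmb9, Psmb10, Psme1 and Psme2) and 39 other subunits. The cells came from tumours of CT26, an established mouse colon carcinoma line, injected at the junction of the caecum; the design text also speaks of subcutaneous growth. The 1 control library came from mice given an anti-IgG antibody, and the 1 antibody library from mice given SLC7A11-Ab, directed at the light chain of the transporter that exchanges glutamate for cystine. Both were given at 10 mg/kg every 2 days. The labels give no mouse strain, genotype, age or number of pooled animals, and name no alteration of the CT26 cells in either group.

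The proteasome is a barrel of stacked alpha and beta rings, the 20S core, capped by the 19S particle, which binds ubiquitin-tagged proteins, unfolds them with its ATPases and feeds them into the barrel. Each beta ring has catalytic subunits encoded by Psmb5, Psmb6 and Psmb7. Interferon gamma induces alternative catalytic subunits, Psmb8 in the place of Psmb5, Psmb9 in that of Psmb6 and Psmb10 in that of Psmb7, and the core that carries them is called the immunoproteasome. Psme1 and Psme2 encode the PA28 alpha and beta chains, an interferon-inducible cap. The peptides produced are carried into the endoplasmic reticulum by Tap1 and Tap2 and loaded on MHC class I molecules.

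In GENCODE M21, on build mm10, the inducible genes lie at 3 places. Psmb8 (chr17:34197721-34201454, plus strand) and Psmb9 (chr17:34181987-34187764, minus strand) lie in the MHC region, and Psme1 (chr14:55578123-55581529, plus strand) and Psme2 (chr14:55587441-55591113, minus strand) are neighbours. Psmb10 lies at chr8:105935735-105938444 on the minus strand. Their constitutive counterparts lie elsewhere: Psmb5 at chr14:54614119-54618022 on the minus strand, Psmb6 at chr11:70525367-70527858 on the plus strand and Psmb7 at chr2:38588036-38644087 on the minus strand. The 44 genes are spread over 16 chromosomes.

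Promoter letters are shown because the inducible and the constitutive catalytic genes differed in opposite directions between the libraries in collagen-gated cells. The windows are RefSeq's, build GRCm38.p6, from 250 bases before to 50 bases after an annotated start, and 37 of the 44 genes have one. Short motifs were searched on both strands, and matches of different motifs were counted also where they overlapped. The core of the interferon-stimulated response element, taken as GAAA, any 2 bases and GAAA again, is in windows of 4 of the 37 genes (Psmb3, Psmd4, Psmd9 and Psme1) and in 3.44% of all 32851 windows. The core of the interferon gamma activated site, TTCNNNGAA, is in those of 2 genes (Psmb8 and Psmd2) and in 8.30% of all windows. The core of the antioxidant response element, TGACNNNGC, is in those of 6 genes, Psmb5 and Psmb6 among them but none of the inducible ones, and in 12.4% of all windows. The CCAAT box is in windows of 14 genes (37.4% of all windows) and the GC box GGGCGG in those of 22 (35.7% of all windows). A match describes the letters only and is not a mapped site. In GENCODE M21 the genes Psmb8, Psmb9 and Psme1 begin upstream of their RefSeq starts. The stretches around the activated site core of Psmb8, the response element core of Psme1 and the GC box of Psmb9 overlap annotated exons. The stretch around the antioxidant core of Psmb5 does not. The following sequences run 5′ to 3′ on the gene's strand, with motif matches in capitals: the activated site core of Psmb8 at -97 from the start (chr17:34198088-34198117, plus strand), the response element core of Psme1 at 9 (chr14:55578493-55578522, plus strand), the GC box of Psmb9 at -55 (chr17:34187368-34187397, minus strand) and the antioxidant core of Psmb5 at -47 (chr14:54618023-54618052, minus strand).
Psmb8: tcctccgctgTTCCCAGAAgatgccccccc
Psme1: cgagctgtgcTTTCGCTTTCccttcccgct
Psmb9: tgcgcgatgatgGGGCGGggcctcagtctg
Psmb5: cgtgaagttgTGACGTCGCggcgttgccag
For Psmb6, whose transcript was lower in the antibody library, the 250 bases before the start (chr11:70525107-70525356, plus strand) hold a GC box and end in the antioxidant core. For Psmb10 the 198 bases beyond the annotated exon (chr8:105938445-105938642, minus strand) hold none of the motifs searched.
Psmb6: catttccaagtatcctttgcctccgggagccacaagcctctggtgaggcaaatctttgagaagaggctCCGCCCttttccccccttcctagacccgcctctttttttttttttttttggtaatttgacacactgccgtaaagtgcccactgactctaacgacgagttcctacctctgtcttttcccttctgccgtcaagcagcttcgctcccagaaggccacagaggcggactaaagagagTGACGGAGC
Psmb10: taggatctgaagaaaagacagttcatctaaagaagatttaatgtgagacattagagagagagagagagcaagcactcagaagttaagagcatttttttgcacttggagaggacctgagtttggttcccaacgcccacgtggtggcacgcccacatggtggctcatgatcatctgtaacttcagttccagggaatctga
The windows of Psmb9 and of Tap1, which is read from the opposite strand, share 275 bases, so the match in the Psmb9 window also lies in that of Tap1.

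Each library was a droplet 3' count of RNA molecules, in which each distinct molecule read is a unique molecular identifier (UMI). The control library held 13910 cell barcodes and 129044329 UMIs, the antibody library 12153 barcodes and 143658800 UMIs, and 39 barcode sequences occurred in both. Filters and the removal of doublets left 12326 cells of the control and 10897 of the antibody library, with median depths of 7052 and 7201 UMIs. Cells were classed by the UMIs of marker genes. The labels call the cells goblet cells, but the goblet markers Muc2, Tff3, Agr2, Spink4, Fcgbp, Clca1 and Spdef each had at most 49 UMIs in a library. The keratin and Epcam gate meant for carcinoma cells took 5 control cells and 0 antibody cells, so no class is called tumour. The gate on Col1a1, Col1a2, Col3a1, Pdgfra, Lum and Dpt took 5592 and 3219 cells, of which 1.59% and 5.56% had a UMI of a Y-linked gene, against 35.1% and 43.1% of macrophage-like cells and 37.7% and 46.3% of T-like cells. These cells are called collagen-gated here and given no cell type. The other classes that reached 100 cells in both libraries were macrophage-like (905 and 1171 cells), T-like (162 and 687) and neutrophil-like (136 and 209). The gates left 5404 control and 5299 antibody cells in no class.

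Levels are given as CPM, the UMIs of a gene scaled to 1000000 UMIs of the class, summed over the cells of a class in a library. A 3' count is not scaled for gene length, and the design gives 1 library a group, so there is no test, SD or p-value. Intervals are 95% and cover counting error only: exact Poisson for a level, exact binomial for a share and conditional binomial for a ratio. A median over genes carries the interval of its middle gene, or the span of those of its middle pair. That interval does not measure the uncertainty of the median. Differences between the libraries cannot be told apart from differences between tumours or preparations.

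The first question was which classes carried the inducible subunits. Of the 4 classes that reached 100 cells in both libraries, T-like cells of the control library had the highest summed level of the 5 inducible subunits and neutrophil-like cells the lowest. The sum was 4007 CPM (3782 to 4241) in T-like, 1976 (1931 to 2022) in macrophage-like, 1085 (1076 to 1093) in collagen-gated and 592 (479 to 724) in neutrophil-like cells, and no neighbours in that order had overlapping intervals. In the antibody library the order was the same over a narrower span: 3292 CPM (3214 to 3371), 2725 (2687 to 2763), 2376 (2363 to 2389) and 1720 (1543 to 1911). Monocyte-like cells, of which there were 40 and 146, had 2294 CPM (1992 to 2630) and 3855 CPM (3671 to 4046), below T-like cells in the control and above them in the antibody library. The T-like sum stood above the collagen-gated one by 1.89 on the log2 scale in the control library and by 0.47 in the antibody library. The other 39 subunits ranked differently, with collagen-gated cells highest at 10759 CPM (10732 to 10786) in the control and 9491 (9465 to 9517) in the antibody library. T-like cells followed at 9873 (9519 to 10238) and 8826 (8699 to 8955). Macrophage-like cells had 9552 (9452 to 9653) and 8270 (8204 to 8337), so that their control interval overlapped that of T-like cells. Neutrophil-like cells were lowest at 5572 (5213 to 5950) and 3345 (3097 to 3608).

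Psmb8, the inducible form of the chymotrypsin-like subunit, gave the widest spread over the 4 classes among the inducible subunits of the control library. Its control level was 1124 CPM in T-like and 467 in macrophage-like cells, against 62.3 in neutrophil-like and 41.3 in collagen-gated cells, and its antibody level 947, 721, 353 and 312 in the same order. The T-like level was thus the highest of these 4 in both libraries, and the 3 remaining classes were all higher in the antibody library. Monocyte-like cells of the antibody library had 1041 CPM of Psmb8 (946 to 1143), and this interval overlapped that of T-like cells. Psmb9 had control levels of 1154 CPM in T-like, 404 in macrophage-like, 136 in collagen-gated and 125 in neutrophil-like cells, and the last 2 did not differ beyond their counting intervals. Its antibody levels were 1025, 712, 622 and 582 CPM. Psmb10 had 408 CPM in T-like, 349 in macrophage-like, 162 in collagen-gated and 49.9 in neutrophil-like cells of the control library. In the antibody library its highest level among these 4 was in collagen-gated cells, at 372 CPM, against 325 in macrophage-like, 235 in T-like and 119 in neutrophil-like cells. Monocyte-like cells of that library lay above them at 516 CPM of Psmb10 (450 to 589). Psmb10 was thus higher in collagen-gated than in T-like cells there, unlike Psmb8 and Psmb9.

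**Figure D1:**
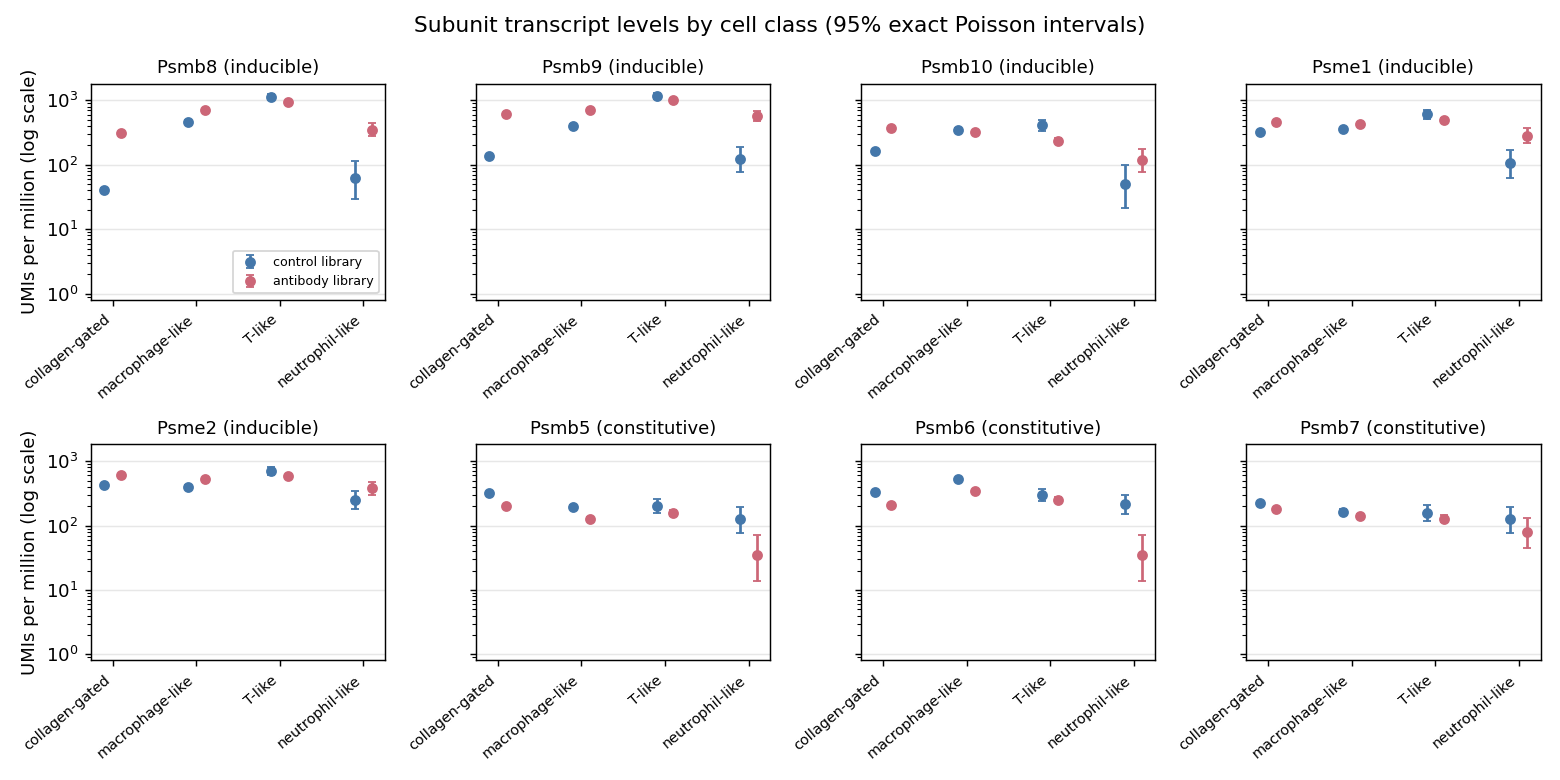
CPM within the class (y axis, log scale) for the 5 inducible and 3 constitutive catalytic genes in 4 cell classes (x axis), control library in blue and antibody library in red, with 95% exact Poisson intervals. Psmb8 sits at 41.3 and 312 in collagen-gated cells (control and antibody) and at 1124 and 947 in T-like cells.

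The inducible part of the UMIs of each catalytic pair compares classes and libraries without the class total. It is a share of transcripts and not of subunits built into the core, which were not measured. UMIs of different genes were not calibrated against each other, so it does not compare the genes of a pair. In collagen-gated control cells Psmb8 made up 11.4% (11.0 to 11.8) of Psmb8 plus Psmb5 UMIs, Psmb9 29.2% (28.7 to 29.8) of Psmb9 plus Psmb6 and Psmb10 41.9% (41.2 to 42.5) of Psmb10 plus Psmb7. The antibody library gave shares of 61.2% (60.6 to 61.8), 74.8% (74.4 to 75.2) and 67.4% (66.9 to 68.0). The inducible share of UMIs was thus higher in the antibody than in the control library for all 3 pairs. Over the 6 catalytic genes together the share was 27.9% and 69.0% in these cells, a difference of 41.1 percentage points (40.6 to 41.5).

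Macrophage-like cells had a high share already in the control library: 70.4% (68.5 to 72.2) for Psmb8, 43.7% (42.0 to 45.4) for Psmb9 and 67.9% (65.8 to 70.1) for Psmb10. The antibody library gave 85.1% (84.2 to 86.0), 67.6% (66.5 to 68.6) and 69.6% (68.0 to 71.2). The Psmb8 and Psmb9 pairs differed beyond counting error and the intervals of the Psmb10 pair overlapped. Over the 6 genes the difference was 16.2 points (14.9 to 17.5). Median depths of macrophage-like cells were 3526 (control) and 5484 UMIs (antibody). Monocyte-like cells, with 40 control and 146 antibody cells, had 65.5% (58.5 to 72.0) and 82.4% (80.1 to 84.4) over the 6 genes.

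T-like cells had the same share in both libraries within counting error, at 80.2% (77.5 to 82.6) and 80.4% (79.4 to 81.4) over the 6 genes, a difference of 0.27 points (-2.39 to 3.08). The Psmb8 share was 84.7% and 85.8% and the Psmb9 share 79.2% and 80.3%, while the Psmb10 share was 72.0% (64.6 to 78.7) and 64.7% (61.2 to 68.1). CD8 T-like cells (88 and 482 cells) gave 80.6% (77.5 to 83.4) and 80.3% (79.1 to 81.4). With doublets kept in, the T-like difference was 6.27 points (3.59 to 9.04). Median depths of T-like cells were 1410.5 (control) and 2565 UMIs (antibody), and with cells thinned to 1000 UMIs the difference was -0.020 points. The C1q list of macrophage markers made up 94.5 and 199 CPM in T-like cells and the collagen list 54.0 and 95.7 CPM. RNA of other classes was thus present and higher with the antibody, and its part in the T-like values was not tested.

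Neutrophil-like cells had the largest difference of the 4 classes, 54.0 points (43.3 to 63.4), between 33.6% (25.0 to 43.1) in the control and 87.6% (82.8 to 91.5) in the antibody library. It rests on 113 and 242 UMIs of the 6 genes in shallow cells, with median depths of 665.5 and 771 UMIs. The collagen list made up 137 and 229 CPM in these cells and the C1q list of macrophage markers 199 and 651 CPM, so RNA of other classes was present and higher in the antibody library, and its part in the result was not tested. With a gate that asks for a marker share of 50% in place of 75%, the difference was 31.1 points (23.6 to 38.5), below the 40.3 points of collagen-gated cells under that gate, so the order of these classes does not hold.

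**Figure D2:**
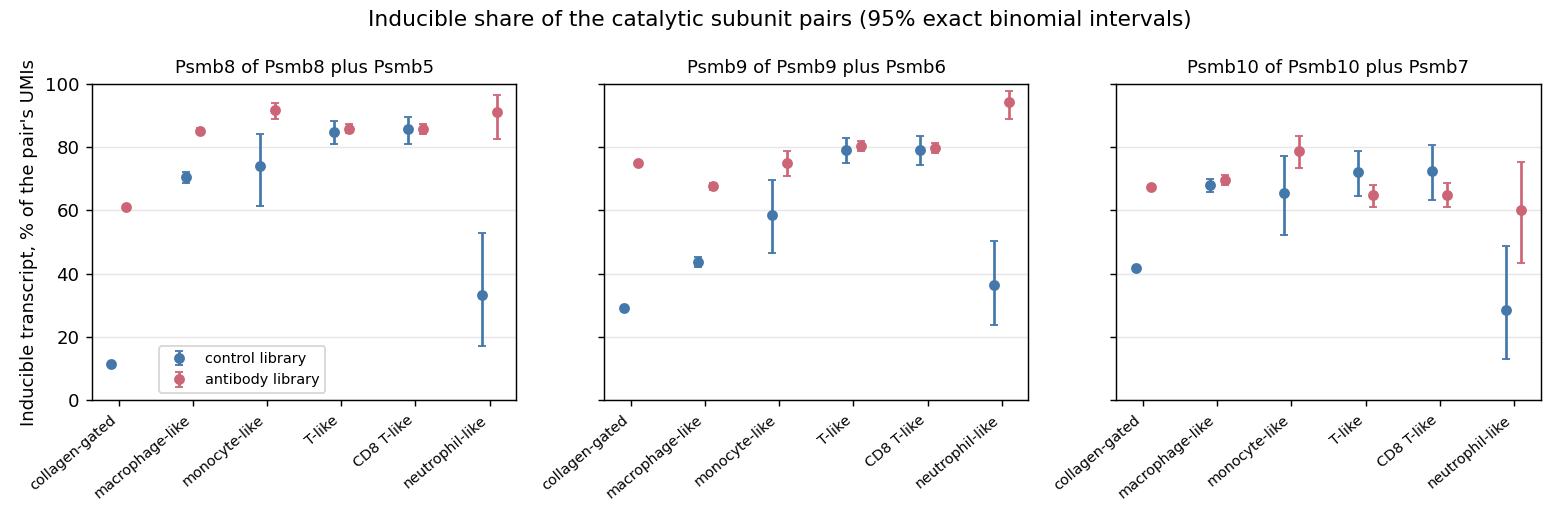
Inducible transcript as a percentage of the UMIs of each catalytic pair (y axis) in 6 cell classes (x axis), control library in blue and antibody library in red, with 95% exact binomial intervals. Collagen-gated cells go from 11.4% to 61.2% for the Psmb8 pair, while T-like cells sit at 84.7% and 85.8%.

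The next question was how each subunit differed between the libraries within a class, as a log2 ratio of antibody over control. In collagen-gated cells all 5 inducible subunits were higher in the antibody library and all 3 constitutive catalytic subunits lower. Psmb8 had 41.3 CPM (control) and 312 CPM (antibody), a log2 ratio of 2.92 (2.86 to 2.98). Psmb9 had 136 and 622 CPM, a ratio of 2.19 (2.15 to 2.22), and Psmb10 162 and 372 CPM, a ratio of 1.20 (1.16 to 1.23). The PA28 genes differed less: Psme1 had 318 and 461 CPM (0.53, 0.51 to 0.56) and Psme2 427 and 609 CPM (0.51, 0.49 to 0.54). Psmb5 had 321 and 198 CPM, a ratio of -0.70 (-0.73 to -0.66), Psmb6 had 330 and 209 CPM, a ratio of -0.66 (-0.69 to -0.63), and Psmb7 had 225 and 179 CPM, a ratio of -0.32 (-0.36 to -0.29). Scaling by the median of gene ratios in place of the class total would add 0.10 to every log2 ratio in collagen-gated, 0.17 in macrophage-like, 0.23 in T-like and 0.33 in neutrophil-like cells. The median of the inducible subunits was 1.20, against -0.14 over the 17447 genes with at least 20 counts in these cells, and 3 of the 5 were at least 2-fold higher, against 12.2% of all genes tested.

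The remaining groups of subunits in collagen-gated cells lay near or below the median of all genes. The medians were -0.18 for the 7 alpha ring genes, which gate the barrel, -0.16 for the 4 other beta genes, -0.40 for the 6 ATPases of the 19S base and -0.25 for the 8 genes of the 19S lid, which removes ubiquitin. All 6 ATPases were below 0, from -0.63 to -0.29. Of the 39 other subunits 37 had at least 20 counts, with 7 above 0, 30 below and a median of -0.30, or 8 above and 29 below with the other scaling. Psmd3, a lid subunit, had 27.1 and 95.4 CPM (1.82, 1.74 to 1.90), and Psmd5, an assembly chaperone of the base, had 20.8 and 58.5 CPM (1.49, 1.40 to 1.59). These 2 were the only other subunits at least 2-fold higher, and 0 were 2-fold lower, against 3.99% of all genes tested. Psmd8, another lid subunit, was next at 147 and 266 CPM (0.86, 0.82 to 0.90), and the ATPase gene Psmc5 was the lowest after Psmb5 and Psmb6, at 170 and 110 CPM (-0.63, -0.67 to -0.58). Markers of leukocytes also differed in these cells, with the C1q list of macrophage markers at 36.7 and 81.8 CPM, the T cell list at 1.72 and 10.4 CPM, the neutrophil list at 2.61 and 2.84 CPM and Ptprc, which marks leukocytes in general, at 1.38 and 5.19 CPM, and their part in the ratios was not tested. Median depths were 8934.5 and 14714 UMIs. In cells thinned to 1000 UMIs the median of the inducible subunits was 1.03 (0.90 to 1.15).

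In macrophage-like cells 4 of the 5 inducible subunits were higher in the antibody library, by less than in collagen-gated cells. Psmb8 had 467 and 721 CPM, a ratio of 0.63 (0.55 to 0.71), and Psmb9 404 and 712 CPM, a ratio of 0.82 (0.73 to 0.90). Psmb10 had 349 and 325 CPM, and its ratio of -0.11 (-0.21 to -0.01) was close to the median of -0.15 over all 11724 genes tested and became 0.06 with the other scaling. Psme1 had a ratio of 0.28 (0.18 to 0.37) and Psme2 one of 0.42 (0.33 to 0.51). The constitutive genes were again lower, with Psmb5 at 196 and 126 CPM (-0.64, -0.78 to -0.49), Psmb6 at 521 and 342 CPM (-0.61, -0.69 to -0.52) and Psmb7 at 165 and 142 CPM (-0.22, -0.37 to -0.07). None of the inducible subunits was 2-fold higher, where 9.0% of all genes were, and 1 other subunit, Psma8, was 2-fold lower, where 4.28% of all genes were. Of the other subunits 38 were tested, with a median of -0.24 and 8 above 0, or 14 above 0 with the other scaling. Psmd3, at 41.9 and 94.1 CPM (1.16, 0.91 to 1.43), and Psmd5, at 12.1 and 30.6 CPM (1.32, 0.86 to 1.84), were again the only ones at least 2-fold higher.

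T-like cells gave ratios below 0 for all 5 inducible subunits, of which Psmb10 alone stood clear of the median of all genes. Psmb8 was at -0.25 (-0.42 to -0.08), Psmb9 at -0.17 with an upper bound at 0, Psme1 at -0.28 (-0.51 to -0.04) and Psme2 at -0.29 (-0.50 to -0.07), where the median of all 8573 genes tested was -0.15. Psmb10 had 408 and 235 CPM and was lowest at -0.80 (-1.09 to -0.50). The 3 constitutive genes were at -0.38 for Psmb5, -0.28 for Psmb6 and -0.32 for Psmb7, and each interval included 0. With the other scaling Psmb9 turned to 0.06, Psmb8, Psme1 and Psme2 came to -0.016, -0.05 and -0.05 and Psmb10 to -0.57, and 18 in place of 9 of the 37 other subunits were above 0. The median of the inducible subunits was -0.28, with the Psme1 interval of -0.51 to -0.04. With doublets kept in it was 0.0069 (-0.15 to 0.17), so its direction does not hold under that choice. Among the other subunits Psmd3 (5 and 202 UMIs, 2.38), Psmd5 (3 and 67 UMIs, 1.45) and Psme3 (3 and 70 UMIs, 1.51) were at least 2-fold higher, which with so few control UMIs have wide intervals of 1.27 to 4.16, 0.05 to 3.98 and 0.12 to 4.04. Psme3 encodes PA28 gamma, the nuclear activator. Psmd10, a chaperone of the base also known as gankyrin, was lower, with 132 and 46.9 CPM (-1.50, -2.04 to -0.91). The share of all genes at least 2-fold higher was 11.1% and at least 2-fold lower 8.13%. In CD8 T-like cells, a part of the T-like cells, the same 4 genes and Psmd8 passed those bounds, with shares of 12.4% and 8.03% over all genes. Psmd3 had 4 control UMIs there, and Psmd5 and Psme3 had 2 each, with intervals that included 0 for Psmd5 and Psme3.

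In neutrophil-like cells 4 of the 5 inducible subunits were at least 2-fold higher in the antibody library, where 13.7% of the 2438 genes tested were. Psmb8 had 10 and 71 UMIs (2.44, 1.54 to 3.62), Psmb9 20 and 117 (2.19, 1.53 to 2.98), Psmb10 8 and 24 (1.20, 0.06 to 2.62) and Psme1 17 and 57 (1.39, 0.62 to 2.29). Of these, Psmb8, Psmb10 and Psme1 had fewer than 20 control UMIs and reached 20 counts through the antibody library. Psme2 had 40 and 77 UMIs and a smaller ratio of 0.61 (0.05 to 1.21). Psmb5 had 20 and 7 UMIs (-1.78, -3.33 to -0.54), Psmb6 had 35 and 7 (-2.57, -4.06 to -1.46) and Psmb7 had 20 and 16 (-0.64, -1.69 to 0.37). Besides Psmb5 and Psmb6, the alpha subunit gene Psma6 (-1.49), the beta subunit gene Psmb2 (-1.10), the ATPase gene Psmc3 (-1.63) and the lid genes Psmd6 (-1.19), Psmd12 (-1.17) and Psmd14 (-1.16) were at least 2-fold lower. These were 8 of the 26 other subunits tested, where 18.5% of all genes were 2-fold lower, and 4 of the 26 with the other scaling. The other subunits as a group summed to 5572 and 3345 CPM, and the RNA of other classes given above applies here too.

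**Figure D3:**
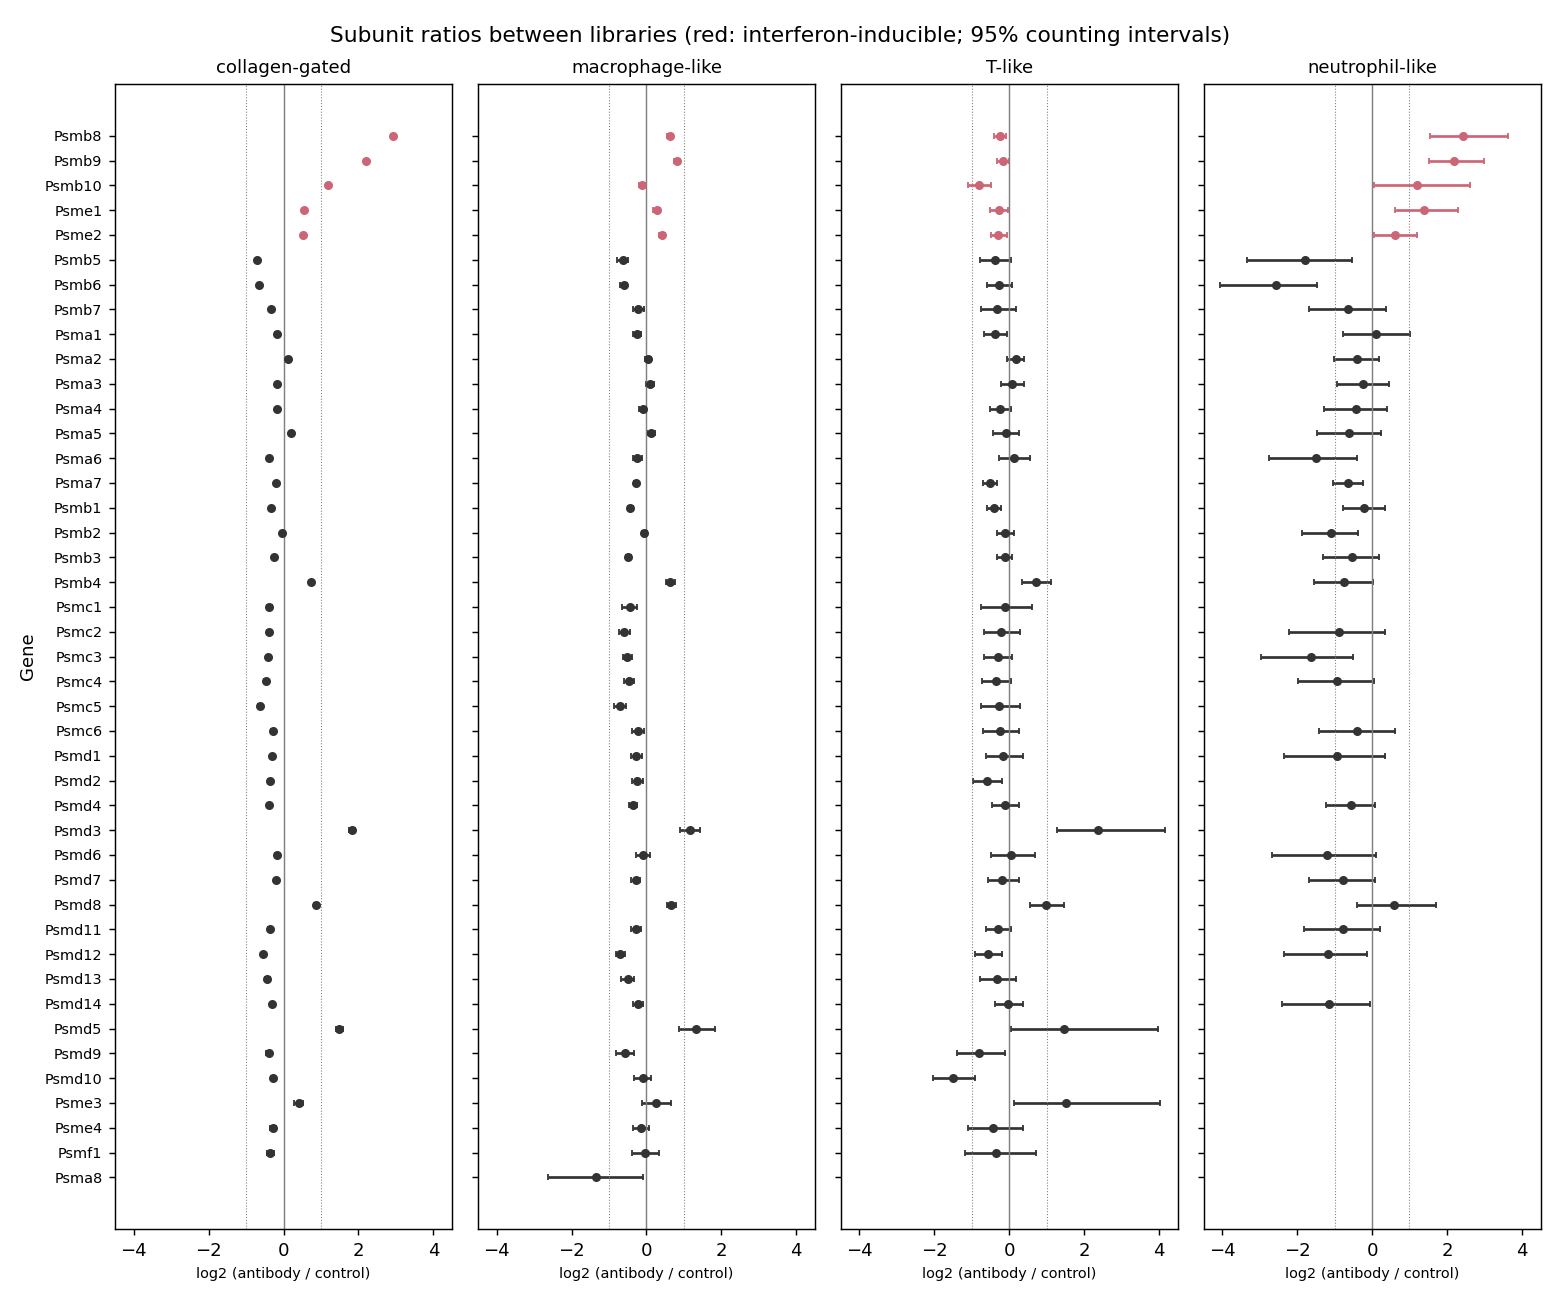
Log2 ratio of antibody over control (x axis) with 95% counting intervals for each subunit with at least 20 counts (y axis), in 4 cell classes, inducible subunits in red and dotted lines at a 2-fold difference. Psmb8 and Psmb9 lie at 2.92 and 2.19 in collagen-gated cells and at -0.25 and -0.17 in T-like cells. Psmd3 and Psmd5 lie above 1 in the 3 classes where they were tested, in T-like cells from 5 and 3 control UMIs.

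Seen over the 4 classes, 31 of the 44 subunits had at least 20 counts in each. Of these, 1 was above 0 in all 4 classes, the lid gene Psmd8, from 0.59 to 0.98, and 18 (58.1%) were below 0 in all 4. Of the 2238 genes of the whole table that also had at least 20 counts in each class, 335 were above and 742 (33.2%) below 0 in all 4. The other scaling leaves 9 subunits (29.0%) below 0 in all 4, where 16.0% of all genes were, and adds Psmb9 to those above, where 22.4% of all genes were. With totals per class the inducible subunits were in neither set. Psmd3 and Psmd5 were at least 2-fold higher in all 3 classes where they were tested. In T-like cells they rested on 5 and 3 control UMIs and reached 20 counts through the antibody library. How many of all genes were at least 2-fold higher in the same 3 classes was not counted. Whether Psmd3 and Psmd5 stand out from other genes in this respect was thus not tested. Psmb4, a beta ring gene, was higher in collagen-gated (278 and 465 CPM, 0.74), macrophage-like (0.64) and T-like cells (0.71) and at -0.75 (-1.55 to 0.02) in neutrophil-like cells. Psmd8 and Psmb4 were thus higher also in T-like cells, where the inducible subunits reached at most 0.06 under either scaling. So were Psmd3 and Psmd5, from the few control UMIs given. Of the tissue-restricted subunits, Psmb11, known from the thymic cortex, had 4 UMIs in each library. Psma8, known from the testis, had 19 and 16 UMIs over all cells, of which 14 and 11 were in macrophage-like cells (3.86 and 1.52 CPM, -1.33, -2.63 to -0.10).

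Collagen-gated cells were also split within each library by genes outside the subunit list. After thinning each cell to 2000 UMIs, cells were binned by the UMIs of 8 interferon-induced genes (Gbp2, Gbp3, Gbp4, Gbp7, Iigp1, Igtp, Irgm1 and Irgm2). The bins are ranges and not cell types. In the control library 4138 cells (76.7%) had 0 such UMIs, 1018 had 1 to 2 and 237 had 3 or more. The antibody library had 540 (17.2%), 895 and 1710 cells. The inducible subunits summed to 969, 1276 and 2122 CPM over these bins in the control library and to 1606, 1897 and 2677 CPM in the antibody library. The level of the inducible subunits was thus higher in each bin with more interferon gene UMIs, in both libraries, with no overlap of the counting intervals. From the bin of 0 to that of 3 or more the log2 difference was 1.13 (1.04 to 1.23) in the control and 0.74 (0.66 to 0.81) in the antibody library.

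The inducible catalytic subunits were also followed gene by gene over the bins of the same cells. Control Psmb9 went from 112 CPM at 0 interferon gene UMIs to 185 and 352 CPM, and Psmb10 from 138 to 228 and 439 CPM. Psmb8 went from 40.1 (35.9 to 44.7) to 55.5 (45.7 to 66.7) and 92.8 CPM (67.4 to 124.6). In the antibody library Psmb8 was at 223, 238 and 374 CPM, so that its lowest antibody bin lay above its highest control bin. For Psmb10 this was not so: its antibody levels were 193, 268 and 446 CPM, and the highest control bin, at 439 (381 to 503), matched the highest antibody bin, at 446 (424 to 469), within counting error. The inducible share of the 6 catalytic genes was 25.3%, 37.7% and 53.0% in the control and 58.2%, 62.6% and 74.2% in the antibody library. The constitutive catalytic genes summed to 854, 773 and 783 CPM over the bins in the control library. In the antibody library they summed to 581, 593 and 545 CPM, below the control in every bin with no overlap of the intervals. The other subunits varied little between the bins and in no common direction, with 10402, 10008 and 10253 CPM in the control and 8690, 8988 and 9039 CPM in the antibody library.

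Macrophage-like cells showed the same order of bins with closer levels in the libraries. The inducible subunits summed to 1738 (1649 to 1830), 2270 (2130 to 2417) and 2986 CPM (2708 to 3284) in the control library and to 1929 (1789 to 2077), 2523 (2410 to 2640) and 3065 CPM (2945 to 3190) in the antibody library. Within each bin the intervals of the libraries overlapped for this sum, but not for every gene in it. At 0 interferon gene UMIs Psmb9 had 325 CPM (287 to 366) in control and 525 (453 to 605) in antibody cells. Psmb10 there had 298 CPM (262 to 338) and 190 (147 to 240). Over the bins the inducible share of the 6 catalytic genes was 54.6%, 62.8% and 74.2% in control cells. In antibody cells it was 66.4%, 74.1% and 78.2%, with overlap of the intervals only at 3 or more. The cells were distributed differently, with 59.1% of control and 19.2% of antibody cells at 0 and 10.1% and 41.8% at 3 or more. Within the bin of 3 or more, Psmb8 had 761 CPM (624 to 918) and 792 (731 to 857), and Psmb10 563 (447 to 701) and 355 (315 to 399), so that Psmb10 was lower in the antibody library at that range of interferon gene UMIs. The other subunits of that bin summed to 9296 CPM (8801 to 9811) in the control and 8011 (7816 to 8211) in the antibody library.

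**Figure D4:**
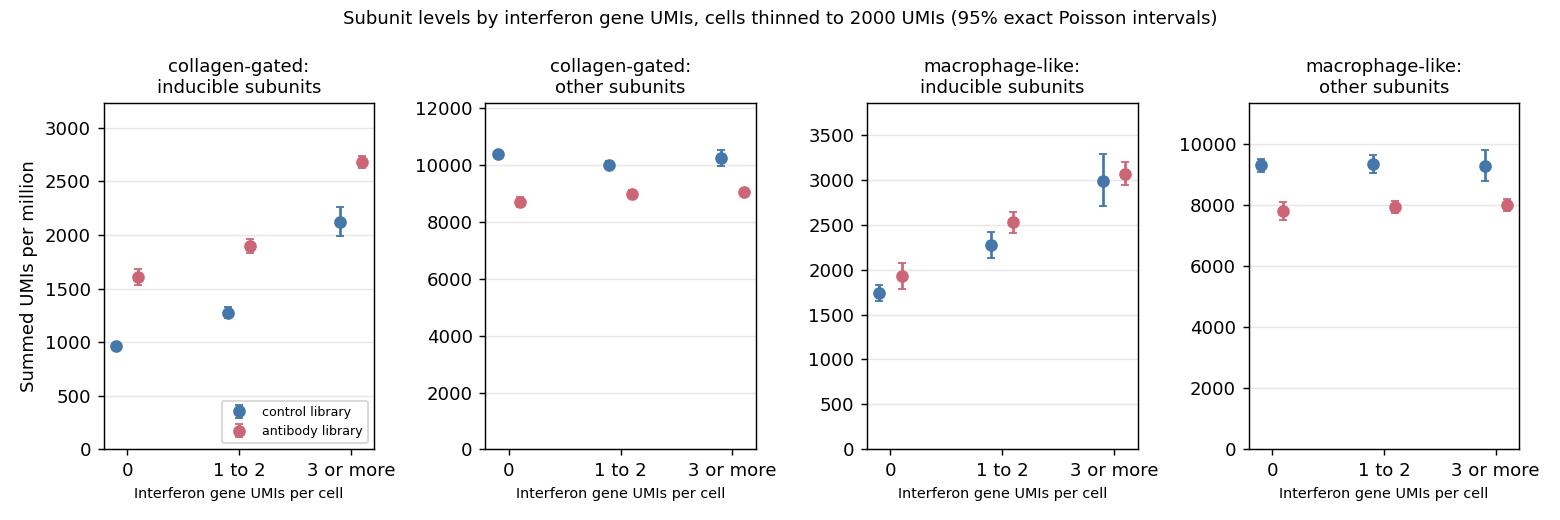
Summed CPM (y axis) of the inducible and of the other subunits in collagen-gated and macrophage-like cells thinned to 2000 UMIs, by interferon gene UMIs per cell (x axis), control library in blue and antibody library in red, with 95% exact Poisson intervals. The inducible subunits go from 969 to 2122 in collagen-gated control cells and from 1606 to 2677 in antibody cells, while the other subunits keep to 10008 to 10402 and 8690 to 9039.

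Genes that act before and after the immunoproteasome were compared in the same way. Of 11 genes of peptide loading on MHC class I, 9 were above 0 in collagen-gated cells, as were 7023 of the 17447 genes tested, and 7 were at least 2-fold higher, against 12.2% of all genes. Their median was 1.41, against -0.14 over all genes, and Tap1, the neighbour of Psmb9, was highest at 2.98. H2-D1 (2.26), H2-K1 (2.08) and Pdia3 (2.02) followed, of which the first pair encode class I heavy chains and Pdia3 a loading chaperone. The medians were 0.66 in macrophage-like, 1.55 in neutrophil-like (9 genes tested) and 0.42 in T-like cells, against -0.15, -0.19 and -0.15 over all genes. In T-like cells the 11 genes went both ways, from -0.69 to 1.78, with 7 above 0 and 4 below. The intervals of 5 of them lay above 0 and those of 3 below. The regulators Irf1 and Nlrc5, which drive class I genes, had ratios of 2.97 and 1.17 in collagen-gated, 1.81 and 0.60 in macrophage-like and 1.18 and 0.32 in T-like cells.

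The factors that build the proteasome or adjust it did not move as a group. Of 10 assembly and accessory genes measured, 4 were above 0 and 6 below in collagen-gated cells, with a median of -0.09. Pomp, which is needed to mature the core and the immunoproteasome, was at -0.15 in collagen-gated, -0.06 in macrophage-like and -0.18 in T-like cells. Adrm1, a ubiquitin receptor of the 19S particle, was at least 2-fold higher in all 3, at 1.76, 1.75 and 1.71. The share of all genes at least 2-fold higher in all 3 was not computed. Of the 4 genes for the transcriptional response that maintains subunit genes, Nfe2l1 encodes the activator and had a ratio of 0.44 in collagen-gated cells. The median of that list was 0.07 in collagen-gated, 0.01 in macrophage-like and 0.54 in T-like cells. In T-like cells 2 of the 4 were at least 2-fold higher, against 11.1% of all genes, and 2 were below 0, from -0.87 to 2.61. The 4 ubiquitin genes had medians of 0.11, -0.04 and -0.08 in collagen-gated, macrophage-like and T-like cells.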

How the data were processed

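The 2 libraries were read as deposited, 1 per group: tables of raw UMI counts per gene and barcode, which the authors made with Cell Ranger 7.2.0 on build mm10 and with Seurat named as a further tool, per the submitters' processing notes. The annotation release and counting of shared reads are not given in the sources used here. Genes listed in only 1 table were set to 0 in the other. The near copy Psme2b had 460 and 909 UMIs beside 40226 and 65475 of Psme2, which may be split between them.

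Barcodes were kept from 200 genes and 500 UMIs upwards if mitochondrial genes took less than 20% of UMIs (13863 and 12061), and doublets were scored with Scrublet in scanpy 1.11.5 and removed at 0.8% per 1000 cells (1537 and 1164). A cell entered a class with at least 3 UMIs over at least 2 markers of its list, where these were at least 75% of the UMIs of all 12 lists. The name "collagen-gated", the bins in those and in macrophage-like cells, the gates without Y-linked UMIs, the class with at least 2 Y-linked UMIs and the ratios of single genes under median-of-ratios scaling were chosen after seeing the data. Log2 ratios used a prior count of 0.5 and genes with at least 20 counts. The calculation was tested on simulated data. No correction for free RNA was made. Genes named with values were the inducible and constitutive catalytic subunits in every class of at least 100 cells per library, other subunits with a log2 ratio of at least 1 in size, the 3 highest and 3 lowest others in collagen-gated cells, the tissue-restricted ones and up to 4 genes of a pathway list; others were chosen after their values were seen. Of the pathway lists, 1 gene of the pathway lists is not reported here and did not enter the bins. The members and lists were chosen with earlier results of these data known. Alternatives were no doublet removal, a stricter cell filter, other gates, scalings, count minimums, thinning and means over cells. Versions were scipy 1.17.1, numpy 2.4.6, pandas 2.3.3, matplotlib 3.10.9 and Python 3.11.15.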

Additional observations from a re-analysis of the deposited data

Results flagged for a closer look

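The inducible subunits had ratios of opposite sign in collagen-gated and T-like cells. The log2 ratios of antibody over control were 2.92 and -0.25 for Psmb8, 2.19 and -0.17 for Psmb9, 1.20 and -0.80 for Psmb10, 0.53 and -0.28 for Psme1, and 0.51 and -0.29 for Psme2. With 1 library per group the difference between the classes was not tested. Nor was the part that RNA of other classes had in these ratios. With median-of-ratios scaling the T-like ratios were 0.06 for Psmb9, so that the signs no longer differ, and -0.016, -0.57, -0.05 and -0.05 for Psmb8, Psmb10, Psme1 and Psme2.

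Cells that entered no class were left out of the comparisons, and they carried the same subunits. In the antibody library Psmb8 was at 257 CPM and Psmb9 at 506 CPM in these cells, against 38.8 and 116 CPM in the control library.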

How the results depend on the processing

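Of the values recomputed under the alternatives, 120 stayed within the interval of the main value and 24 moved out of it with the same sign. Another 4 changed sign from an interval that left out 0, and 3 of the 120 also changed sign. For a median over genes that interval is the one of its middle gene or pair. The median log2 ratio of the inducible subunits in collagen-gated cells stayed between 1.03 and 1.30 under the alternatives run: 1.03 with cells thinned to 1000 UMIs, 1.05 as a mean over scaled cells, 1.09 and 1.14 with marker shares of 90% and 50%, 1.15 with totals without mitochondrial, ribosomal protein and haemoglobin genes, and 1.30 both with median-of-ratios scaling and after subtracting each gene's median over the other classes. It was 1.12 in cells taken in place of the collagen gate, with at least 2000 UMIs and no Y-linked or Ptprc UMI. These had fewer than 3 UMIs in each immune or endothelial marker list, so 1 or 2 were allowed. The other subunits in collagen-gated cells were at -0.35 with the 90% marker share, -0.34 with the reduced totals and -0.19 with median-of-ratios scaling. In macrophage-like cells that scaling gave -0.074, and 0.59 for the inducible subunits. Subtracting the other classes turned the other subunits to 0.071 in collagen-gated and 0.036 in macrophage-like cells and the inducible subunits to -1.30 in macrophage-like cells, and gave -2.0 for the inducible and 0.13 for the other subunits in T-like cells, the latter from -0.25 (-0.69 to 0.25); by construction it leaves only what a class does not share with the others. As a mean over scaled cells the other subunits of neutrophil-like cells came to 0.039 from -0.76 (-1.81 to 0.21), and in thinned cells the T-like share difference came to -0.020 points from 0.27. With doublets kept in, the T-like median was 0.0069, the difference in inducible share 6.27 points in T-like and 22.1 in macrophage-like cells, and the T-like level above the collagen-gated one 1.49 (control) and 0.31 (antibody); the cause was not tested. The share difference was 39.9 (thinned) and 40.3 points (50% marker share) in collagen-gated, 14.7 (thinned) in macrophage-like and 31.1 (50% marker share) in neutrophil-like cells. The 50% marker share put T-like above collagen-gated cells by 0.52 in the antibody library, and thinning to 1000 UMIs gave a difference between interferon bins of 1.34 in the control library; the causes were not tested. That scaling also moved the number of other subunits above 0 from 9 to 18 of 37 in T-like and from 8 to 14 of 38 in macrophage-like cells. Neutrophil-like cells had too few cells for the stricter filter and for thinning, and the alternative for keratin-gated cells without a Y-linked UMI was not run. No paired analysis was possible because each group has 1 library. Median depths of 665.5 and 771 UMIs limit the precision of the neutrophil-like values.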

Other observations

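Collagen-gated cells with at least 2 Y-linked UMIs (28 control and 55 antibody cells) were too few for a comparison. In them the collagen list made up 29619 and 31718 CPM, against 1406 and 1859 CPM in all collagen-gated cells. The cells with Y-linked UMIs had 111 and 456 CPM of Psmb8. Their inducible share of the 6 catalytic genes was 25.2% (20.3 to 30.5) and 69.5% (67.3 to 71.7). In the cells of no class that share was 24.1% (23.7 to 24.5) and 64.8% (64.5 to 65.2). Monocyte-like cells had 535 and 1041 CPM of Psmb8 and 189 and 94.2 CPM of Psmb5.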
